A study of Mus musculus with 15 samples.

Results

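Fluticasone furoate (FF) was compared with dexamethasone (DEX) in the mouse macrophage-like cell line RAW264.7, on the 6 one-colour expression arrays of these 2 glucocorticoids out of 15 arrays in all. The members are the 3 arrays titled FF and the 3 titled DEX, which lie on 1 slide, and every noncontrol probe was read from them. Cells of both groups received their steroid at 100 nM for 1 h and then 1 ug/ml of lipopolysaccharide (LPS), a bacterial cell wall component, for 16 h. The 3 vehicle arrays, labelled EtOH and DMSO, lie on the other slide and are quoted as a control level with no test. Their labels do not name LPS, although the protocol attached to every sample does, and the solvent of each compound is not given in the sources used here. The other 6 arrays, of the code-named compounds VSG158 and VSG159, do not enter the difference of FF minus DEX in the main setting. Together with the vehicle arrays they enter the estimate of the spread, the choice of tested probes and the choice of each gene's probe. The series text speaks of duplicates where the labels give 3 replicates, and nothing says that these came from separate cultures, so the p-values speak only for the spread among these samples, which may be technical.

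Glucocorticoids enter the cell and bind the glucocorticoid receptor, which moves to the nucleus and switches on genes such as Fkbp5, Tsc22d3, Per1 and Dusp1. The same receptor restrains NF-kB, AP-1 and interferon-driven transcription, the programmes that LPS starts through Toll-like receptor signalling. In macrophages this lowers cytokines, chemokines and inflammatory enzymes, and LPS itself holds back the cell cycle of macrophage lines. DEX and FF share a fluorinated, methylated corticosteroid core. FF carries an additional ring fluorine, a furoate ester in place of a free hydroxyl on ring D, and a fluoromethyl thioester in place of the hydroxyacetyl side chain. This is 1 pair of compounds at 1 matched dose and time.

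With FF, 12 of 41 tested cytokine and chemokine genes were lower than with DEX and none was higher, and 37 of 76 genes of DNA replication and mitosis were higher and none lower. Il1b was lower by 1.66 on the log2 scale (SE 0.15), a 3.15-fold difference, and the histone gene H2ac4 was higher by 1.48 (SE 0.17), a 2.80-fold difference. Of 19506 tested genes, 807 were called (limma, Benjamini-Hochberg adjusted p under 0.05), which is 4.14%. FF was higher than DEX for 362 of them (1.86% of those tested) and lower for 445 (2.28%), and 124 differed at least 2-fold, 68 higher and 56 lower. The share of called genes that were higher was 44.9% here, 59.1% after quantile normalization, 58.8% in the deposited value table and 70.7% when arrays were scaled on probes above background everywhere. That last scaling moved the median difference of all genes from -0.03 to 0.07. Of 28508 probes, 1216 were called (4.27%), and here the balance was the other way, with 672 higher (55.3%) and 544 lower. The 3 FF arrays did not overlap the 3 DEX arrays for 7490 genes (38.4%), and since an exact test of 3 against 3 cannot give a p below 0.1, single genes rest on limma. Separate arrays were part of the rule that chose the 12 largest rises and the 12 largest falls. For those genes the separation described below is therefore no further support. In these bulk samples fewer expressing cells and less RNA per cell cannot be told apart.

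**Figure D1:**
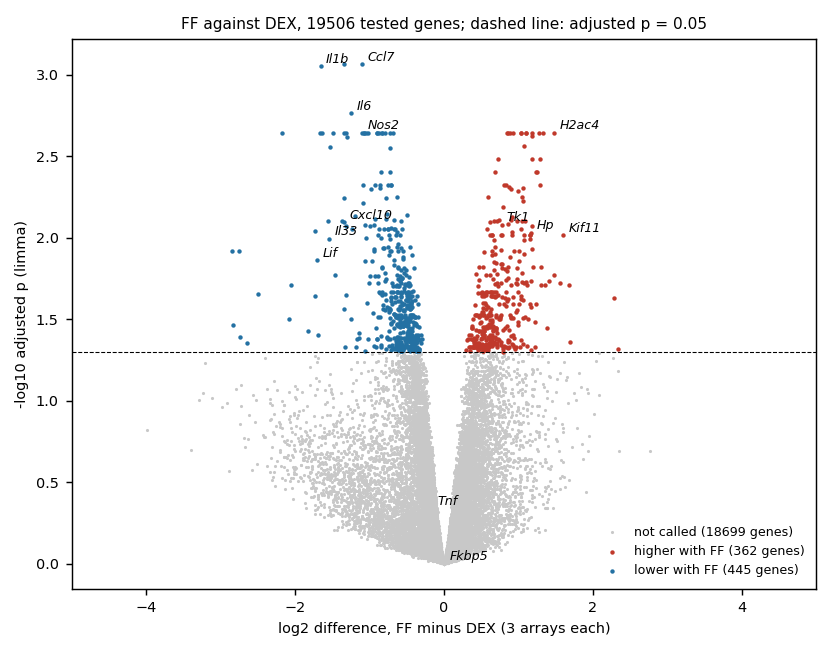
Each point is 1 of the 19506 tested genes, with its log2 difference of FF minus DEX (3 arrays each) on the horizontal axis and -log10 of the limma adjusted p on the vertical axis. The 362 red genes were called higher with FF and the 445 blue genes lower. Il1b, Il6 and Ccl7 lie near the top on the lower side and H2ac4 and Tk1 on the higher side, while Fkbp5 and Tnf lie below the dashed line at adjusted p = 0.05. For genes not above background in 1 group, such as Kif11, the measured difference is plotted.

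The 75th percentile of processed signal was 804 to 940 on the 6 arrays, and none of their spots was saturated. Other quality values stood apart between the compounds. Spots well above background made up 48.0% to 49.6% with FF and 46.4% to 47.0% with DEX, outlier-marked spots numbered 98 to 192 and 236 to 294, and non-uniform spots 28 to 78 and 82 to 230. Their part in the results was not tested. Arrays of the same compound correlated at 0.984 to 0.993 and FF with DEX arrays at 0.978 to 0.986. All 10 macrophage markers (Cd68, Csf1r, Adgre1, Lyz2 and others) were above background with both compounds, and their summed level, in multiples of the 75th percentile, was 889 to 961 with FF and 886 to 1047 with DEX. Of these markers, Fcgr1 alone was called, lower with FF by 0.43 on the log2 scale (adjusted p = 0.0429). Of all tested genes, 38.4% did not overlap between the compounds. Marker sums did not overlap for 5 other cell types, lower with FF for 4 of them. They were 31.7 to 52.6 with FF and 54.0 to 106.7 with DEX for T cells (5 of 10 markers above background with each), and 83.2 to 124 against 144 to 189 for neutrophils or mast cells (2 of 11 with each). For B cells they were 28.6 to 34.0 against 38.8 to 47.4 (4 of 8 with FF, 2 with DEX), and for osteoclasts 22.9 to 27.8 against 28.6 to 33.0 (9 of 10 with each). Ms4a1, a B cell marker, was called higher with FF by 1.03 and none of the other markers of these 5 types was called. The fibroblast sum was near 0 and higher with FF, at 0.43 to 0.65 against 0.31 to 0.42 (1 of 8 with each). The part of these markers in the results was not tested.

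FF occupied positions 2 to 4 and DEX positions 5 to 7 of the slide, so compound and place on the slide cannot be told apart fully. With slide and position in the model, 0 genes were called by limma (2124 at an unadjusted p under 0.05), while all 807 called genes kept their sign. Il1b then differed by -1.68 (adjusted p = 0.106), Il6 by -1.29 (adjusted p = 0.106) and H2ac4 by 1.64 (adjusted p = 0.115).

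Promoters of some of the genes that differed most are shown first, since the NF-kB, interferon and E2F programmes are each read through short DNA elements. The windows printed all hold matches, which not every window does. The sequences are the 250 bases before the annotated start in RefSeq (build GRCm38.p6), written 5′ to 3′ on the gene's strand. Cxcl3 (chr5:90785851-90786100, + strand) and Il19 (chr1:130940116-130940365, - strand) are among the 12 largest falls with FF, and capitals mark kappaB-like matches (GGG and CC with any 5 bases between them, on either strand, overlaps counted separately) or interferon-response-like matches (GAAA repeated after any 2 bases, on either strand). Dek (chr13:47106222-47106471, - strand) is among the 12 largest rises, and capitals mark its match to an E2F-like motif (TTCCCGC or TTGGCGC on either strand).
Cxcl3: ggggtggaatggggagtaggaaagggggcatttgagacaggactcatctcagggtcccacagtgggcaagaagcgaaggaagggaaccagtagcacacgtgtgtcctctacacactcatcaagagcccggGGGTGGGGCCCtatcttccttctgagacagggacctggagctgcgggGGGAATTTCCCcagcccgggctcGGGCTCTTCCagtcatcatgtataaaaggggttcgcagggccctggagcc
Il19: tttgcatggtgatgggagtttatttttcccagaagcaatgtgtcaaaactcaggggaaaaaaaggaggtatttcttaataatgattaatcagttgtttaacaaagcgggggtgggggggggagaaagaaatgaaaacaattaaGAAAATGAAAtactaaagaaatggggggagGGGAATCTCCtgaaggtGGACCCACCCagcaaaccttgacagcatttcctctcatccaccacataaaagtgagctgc
Dek: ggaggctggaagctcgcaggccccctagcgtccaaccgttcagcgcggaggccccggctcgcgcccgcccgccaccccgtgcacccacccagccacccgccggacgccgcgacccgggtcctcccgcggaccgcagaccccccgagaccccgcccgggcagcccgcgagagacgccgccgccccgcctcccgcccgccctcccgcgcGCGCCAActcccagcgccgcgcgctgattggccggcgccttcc

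The Cxcl3 window holds 5 kappaB-like matches, that of Il19 holds 2 and 1 interferon-response-like match, and that of Dek holds 1 E2F-like match and also 1 kappaB-like match, which is not in capitals. Cxcl3 had the most kappaB-like matches of the falls and Il19 their only interferon-response-like match. The windows of Il1b, Il1a, Il33 and Serpinb2, also among the 12 largest falls, hold neither kind. That of H2ac4, among the 12 largest rises, holds no match to any motif searched. All 12 largest falls had a promoter in the table (15 windows) and 10 of the 12 largest rises did (10 windows). A kappaB-like match was found in 9 of the 15 windows of the falls and 4 of the 10 of the rises, beside 45.8% of all 32851 promoters. E2F-like matches were in 1 and 2 windows, beside 5.62% of all, and interferon-response-like matches in 1 and 1, beside 2.98% of all. The short glucocorticoid element AGAACA was in 0 and 2 windows, beside 16.1% of all, and the longer element (ACA and TGT around any 3 bases, with a G and a C 1 base further out) in none of either, beside 0.387% of all. These matches describe letters in a window and say nothing of whether a factor binds there.

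Of 20 tested proinflammatory cytokine genes, 6 were lower with FF, 0 were higher and 14 were not called, and their median difference was -0.46 beside -0.03 over all tested genes. These 6 were Il1a, Il1b, Il6, Il33, Lif and Csf2. Between 5 and 6 members were called lower when any 1 of the 6 arrays was left out, and the median stayed below 0 in all 25 alternative settings. Fits that changed only the blocks or the arrays behind the spread returned the same median, so its sign there was fixed in advance. This holds for each list median said below to keep its sign. No member was called with slide and position as covariates or with a replicate block over 6 arrays, and 1 was called with median scaling.

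Il1b, the inflammasome-processed cytokine interleukin-1 beta, had levels of 4.17, 4.08 and 4.01 on the FF arrays, 5.84, 5.58 and 5.81 on the DEX arrays and 7.74, 7.74 and 7.93 on the vehicle arrays (log2 of processed signal over the array's 75th percentile, so 0 is the 75th percentile). The 3 groups did not overlap, with FF lowest and vehicle highest. The difference of FF minus DEX was -1.66 (95% interval -1.98 to -1.33, adjusted p = 0.000886), and another probe above background gave -1.74 (adjusted p = 0.003). Il1a, its relative interleukin-1 alpha, read 0.39, 0.47 and 0.57 with FF, 2.29, 1.82 and 2.22 with DEX and 4.05, 4.14 and 4.32 with vehicle. Again no FF array reached the lowest DEX array. Its difference was -1.64 (SE 0.18, adjusted p = 0.00227).

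Il6, a cytokine that drives the acute-phase response, was at 3.41, 3.43 and 3.47 with FF, 4.63, 4.61 and 4.82 with DEX and 5.77, 5.63 and 5.68 with vehicle. The FF arrays lay within 0.06 of each other and below every DEX array. FF minus DEX was -1.25 (SE 0.12, adjusted p = 0.00173), and a further probe gave -1.26. Lif, a cytokine of the interleukin-6 family, was dim at -4.43, -4.39 and -3.76 with FF (2 of 3 arrays above background) and at -2.41, -2.58 and -2.48 with DEX. Vehicle arrays were at -0.92, -0.78 and -0.65, the brightest of the 3 groups. The difference of -1.70 (SE 0.30, adjusted p = 0.0138) made Lif the gene with the largest fall among named genes above background in both groups.

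Il33, the alarmin interleukin-33, read 1.30, 1.44 and 1.10 with FF, 3.04, 2.78 and 2.64 with DEX and 6.47, 6.62 and 6.80 with vehicle. The vehicle arrays stood far above both steroids. FF minus DEX was -1.54 (SE 0.26, adjusted p = 0.0102), while its other probe gave -0.96 and was not called (adjusted p = 0.225). Csf2, encoding the growth factor GM-CSF, was at -0.58 ± 0.04 with FF, 0.71 ± 0.15 with DEX and 1.43 ± 0.25 with vehicle (SD, n = 3 each), a difference of -1.30 (adjusted p = 0.00243). Il19, a cytokine of the interleukin-10 family, was at -0.12, 0.05 and -0.38 with FF, 1.77, 1.31 and 1.47 with DEX and 3.73, 3.96 and 3.95 with vehicle. FF lay below DEX on every array, by 1.67 on average (SE 0.21, adjusted p = 0.00227), and another probe gave -1.46 (adjusted p = 0.006).

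Tnf did not follow this pattern. It was at 4.74, 4.48 and 4.67 with FF, 4.68, 4.81 and 4.87 with DEX and 5.09, 5.23 and 4.96 with vehicle, and FF and DEX arrays overlapped. The difference was -0.16 (95% interval -0.41 to 0.10, adjusted p = 0.461), so a fall of more than 0.41 lies outside the interval of this probe. Ebi3, a subunit of interleukin-27 and interleukin-35, was not called either, at -0.16 (95% interval -0.32 to -0.01, adjusted p = 0.199).

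**Figure D2:**
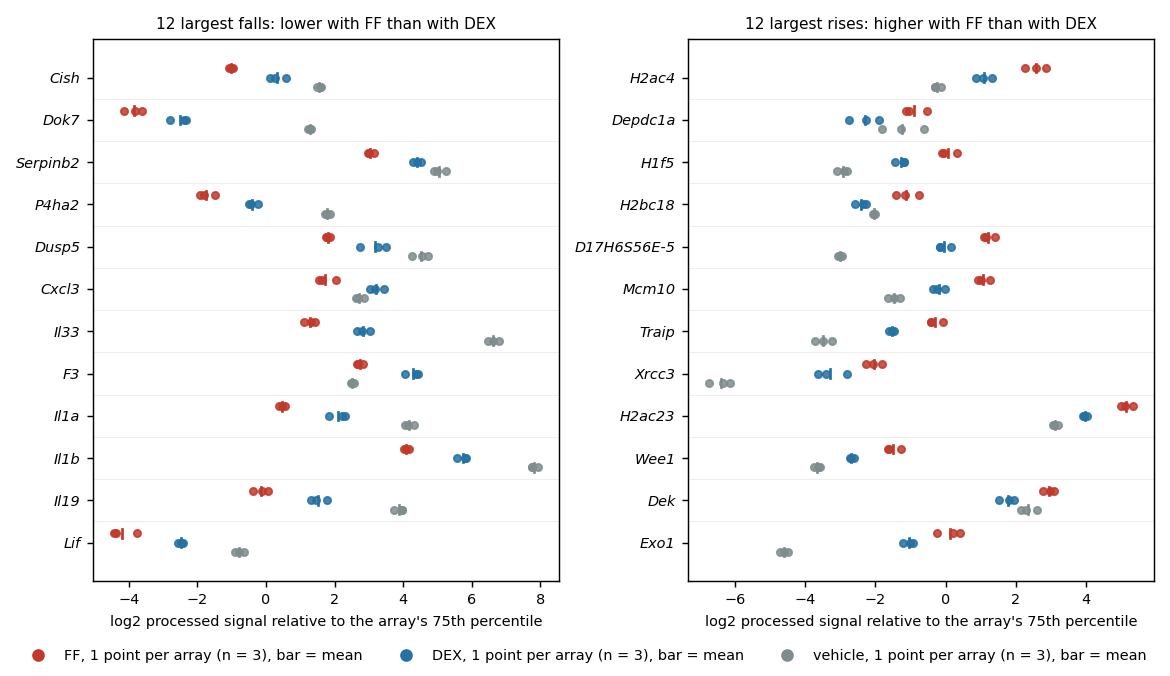
Levels of the 12 largest falls and the 12 largest rises of FF against DEX, 1 point per array and a bar at the mean (n = 3 per group), as log2 processed signal relative to the array's 75th percentile. FF and DEX points do not overlap in any of these genes, because separate arrays were part of the rule that chose them. Vehicle points lie above DEX for Il1b and Il33, below both steroids for F3 and Exo1, and between FF and DEX for Cxcl3 and Dek.

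Chemokine genes split. Of 11 tested CC chemokines, 3 were lower with FF (Ccl6, Ccl7, Ccl12), 0 higher and 8 not called, with a median of -0.17. Of 10 CXC chemokines, 3 were lower (Cxcl2, Cxcl3, Cxcl10), 0 higher and 7 not called, with a median of -0.38. Ccl7, a monocyte attractant, was at 4.34, 4.38 and 4.41 with FF, 5.34, 5.61 and 5.49 with DEX and 7.39, 7.40 and 7.34 with vehicle. FF arrays were lowest and vehicle arrays highest, with no overlap, and FF minus DEX was -1.10 (SE 0.09, adjusted p = 0.000864). Ccl12, of the same family, read -1.09, -1.08 and -1.13 with FF against -0.25, 0.05 and 0.02 with DEX, and 3.85, 3.93 and 3.66 with vehicle. Its FF arrays were all below its DEX arrays, a difference of -1.04 (SE 0.12, adjusted p = 0.00227).

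Cxcl10, an interferon-induced attractant of T cells, was at 2.04, 1.96 and 2.28 with FF, 3.43, 3.27 and 3.60 with DEX and 6.57, 6.44 and 6.42 with vehicle. The groups were separate, and FF minus DEX was -1.34 (SE 0.21, adjusted p = 0.00804). Cxcl3, a neutrophil attractant, was at 2.03, 1.54 and 1.62 with FF, 3.43, 3.04 and 3.19 with DEX and 2.85, 2.67 and 2.62 with vehicle. Here DEX arrays were the highest, vehicle arrays lay between and FF arrays were the lowest, with a difference of FF minus DEX of -1.49 (SE 0.18, adjusted p = 0.00227). Ccl6 was likewise highest with DEX, at 3.05 ± 0.19, beside 2.22 ± 0.07 with FF and 2.35 ± 0.27 with vehicle (difference -0.83, adjusted p = 0.0152). Cxcl2, another neutrophil attractant, was lower by 0.71 (adjusted p = 0.0121).

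Several of the brightest chemokines were not called. Ccl2 read 8.23, 8.13 and 7.97 with FF and 8.10, 8.35 and 8.36 with DEX, and the groups overlapped. Its difference was -0.16 (95% interval -0.40 to 0.09, adjusted p = 0.431). Ccl4 differed by -0.17 (95% interval -0.35 to 0.01), Ccl5 by -0.31 (-0.55 to -0.08, adjusted p = 0.119) and Cxcl11 by 0.03 (-0.24 to 0.31). For these genes the intervals leave out a 2-fold difference in either direction.

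Of 15 inflammatory enzyme genes, 4 were lower with FF (Nos2, Ptgs2, Pla2g4a, Cybb), 0 higher and 11 not called, with a median of -0.28. With any 1 of the 6 arrays left out, 1 or 2 of the list were called lower, and the Ptgs2 and Cybb calls ended each time. Nos2, the inducible nitric oxide synthase, was at 5.62, 5.71 and 5.92 with FF, 6.81, 6.86 and 6.87 with DEX and 8.21, 8.32 and 8.36 with vehicle. FF arrays were all below DEX arrays and these below vehicle arrays, and FF minus DEX was -1.10 (SE 0.12, adjusted p = 0.00227). Ptgs2, the inducible cyclooxygenase of prostaglandin synthesis, read 5.31, 5.40 and 5.46 with FF, 6.43, 6.19 and 6.26 with DEX and 7.78, 7.86 and 7.79 with vehicle. The order of the groups was that of Nos2, with a difference of -0.90 (SE 0.21, adjusted p = 0.0418). Cybb, the catalytic subunit of the phagocyte oxidase, was highest with DEX, at 6.11 ± 0.19, beside 5.41 ± 0.04 with FF and 5.00 ± 0.32 with vehicle (difference -0.70, adjusted p = 0.047), but another probe above background on all 6 arrays gave 0.05 (adjusted p = 0.798). Pla2g4a, the cytosolic phospholipase that frees arachidonic acid, was lower by 0.67 on its brightest probe (adjusted p = 0.0295), but differed by 0.048 with the mean of its probes. Ptges, the prostaglandin E synthase, was not called, at -0.18 (95% interval -0.36 to 0.00), and neither was Acod1, which makes itaconate, at -0.17 (95% interval -0.39 to 0.06).

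Of 40 type I interferon-induced genes, 6 were lower with FF (Ifit2, Ifit3, Ifit3b, Mx1, Rsad2, Bst2), 0 higher and 34 not called, with a median of -0.23 that stayed below 0 in all 25 alternatives. The number called lower was 2 to 5 with 1 array left out, and 2 without FF replicate 1 or without DEX replicate 3. Rsad2, the antiviral enzyme viperin, was at 1.17, 1.12 and 1.24 with FF, 2.24, 2.34 and 2.69 with DEX and 7.69, 7.76 and 7.85 with vehicle. Both steroids lay far below vehicle and FF lay below DEX, by 1.25 (SE 0.28, adjusted p = 0.0316), although another probe gave -0.85 without a call (adjusted p = 0.126) and leaving out any array ended the call. Ifit2, a translation inhibitor of the interferon response, read -1.69, -1.78 and -1.83 with FF, -0.92, -1.08 and -0.80 with DEX and 4.50, 4.35 and 4.22 with vehicle. FF arrays were again lowest, with a difference of -0.83 (SE 0.17, adjusted p = 0.0217). Its neighbour in function Ifit1 was not called, at 1.98, 1.98 and 1.92 against 2.12, 2.23 and 2.14 with DEX and 5.39, 5.24 and 5.33 with vehicle. Its FF and DEX arrays did not overlap, yet the difference was -0.20 (95% interval -0.49 to 0.08, adjusted p = 0.382). Parp14, at -0.25 (-0.42 to -0.07, adjusted p = 0.0982), was not called either. Of 15 interferon-induced GTPase genes 1 was called (6.67%, near the 4.14% of all genes), and 0 with any array left out. This was Gbp2b, lower by 0.56 (adjusted p = 0.0495), while Irgm2 differed by -0.07 (95% interval -0.28 to 0.15). Ifnb1, the interferon beta gene, was not well above background on any FF or DEX array, and its vehicle arrays were at -1.55, -1.42 and -1.72.

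Some genes that limit inflammation were called lower too. Of 16 anti-inflammatory mediators and receptors, 4 were lower (Il10, Il10ra, Tgfbr2, Cish), 0 higher and 12 not called, with a median of -0.31. Leaving out 1 array left 1 to 3 of the list called, and 1 without FF replicate 1 or 3 or DEX replicate 1 or 3. Another Il10ra probe, above background on all 6 arrays, gave 0.32 (adjusted p = 0.283). Il10, the main anti-inflammatory cytokine of macrophages, was at 0.97, 1.15 and 1.03 with FF, 1.85, 1.76 and 1.92 with DEX and 3.08, 3.21 and 3.28 with vehicle. No groups overlapped, and FF minus DEX was -0.80 (SE 0.10, adjusted p = 0.00227). Cish, an inhibitor of cytokine receptor signalling, read -0.96, -1.08 and -1.03 with FF, 0.58, 0.12 and 0.25 with DEX and 1.49, 1.59 and 1.58 with vehicle. FF lay below DEX on every array, by 1.34 (SE 0.28, adjusted p = 0.0272). Socs3, of the same inhibitor family, was not called, at -0.17 (95% interval -0.39 to 0.04). Anxa1, a glucocorticoid-linked phospholipase inhibitor, was not called at -0.34 (95% interval -0.57 to -0.11, adjusted p = 0.091).

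The MAPK phosphatases, which switch off the kinases of the LPS response, had 5 of 12 members lower with FF (Dusp1, Dusp4, Dusp5, Dusp10, Dusp14), 0 higher and 7 not called, with a median of -0.42 that kept its sign in all 25 alternatives. Dusp5, an ERK phosphatase, was at 1.76, 1.87 and 1.77 with FF, 3.49, 2.74 and 3.27 with DEX and 4.54, 4.27 and 4.72 with vehicle. FF arrays lay together below the more scattered DEX arrays. The difference was -1.36 (SE 0.21, adjusted p = 0.00789), but another probe above background on all 6 arrays gave 0.02 (adjusted p = 0.974), so the value speaks for 1 probe. Dusp10 was lower by 0.99 (adjusted p = 0.00843) and Dusp4 by 0.72 (adjusted p = 0.00396), whereas Dusp6 was not called at -0.36 (95% interval -0.62 to -0.11) nor Dusp7 at 0.32 (0.08 to 0.57). Another Dusp4 probe, above background on all 6 arrays, gave -0.17 without a call.

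Among 12 mRNA decay factors, 3 were lower with FF (Zfp36, Zfp36l2, Hnrnpd) and 9 not called, with a median of -0.14, and 1 or 2 were lower with 1 array left out. Zfp36, tristetraprolin, which destroys cytokine mRNAs, read 5.01, 4.74 and 5.16 with FF, 5.71, 5.60 and 5.79 with DEX and 6.10, 6.48 and 6.55 with vehicle. The 3 groups were separate, and FF minus DEX was -0.73 (SE 0.16, adjusted p = 0.0277). Its relative Zfp36l2 was highest with DEX, at 4.30 ± 0.22, beside 3.32 ± 0.13 with FF and 3.77 ± 0.11 with vehicle (difference -0.97, adjusted p = 0.005). Of 17 NF-kB subunits and inhibitors 4 were lower (Nfkb1, Nfkb2, Relb, Nfkbiz) and 13 not called, with a median of -0.19. These 4 calls speak for 1 probe each, since 0 members were called with the mean of a gene's probes and 1 or 2 with 1 array left out. Another probe above background on all 6 arrays gave 0.15 for Nfkb1, 0.08 for Nfkb2, 0.16 for Relb and 0.30 for Nfkbiz, none of them called. On its brightest probe Nfkbiz, a co-activator of Il6 transcription, was at 3.31 ± 0.06 with FF, 4.02 ± 0.15 with DEX and 4.35 ± 0.11 with vehicle (difference -0.71, adjusted p = 0.00874). Rela, the main activating subunit, was not called, at -0.11 (95% interval -0.31 to 0.08) and at 0.19 with its probes averaged.

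Of 19 early-response transcription factors 4 were lower with FF (Atf3, Egr1, Ier3, Maff) and 15 not called, with a median of -0.30, and 2 or 3 were lower with 1 array left out. Atf3, a stress-induced repressor, was lower by 0.76 (adjusted p = 0.0072) and Egr1 by 0.53 (adjusted p = 0.0425). Egr1 was at 2.76 ± 0.03 with FF, 3.29 ± 0.17 with DEX and 2.64 ± 0.12 with vehicle, so that DEX stood highest. Of 20 Toll-like receptors and adaptors, Irak2 (-0.53, adjusted p = 0.0341) and Traf6 (-0.62, adjusted p = 0.043), both links from the receptor to NF-kB, were called lower. The other 18 members were not called, and at most 1 was called with an array left out. The called share was 10%, beside 4.14% of all genes. Other Irak2 probes gave -0.15 (adjusted p = 0.687) and -0.43 (adjusted p = 0.371). Other Traf6 probes gave -0.32 (adjusted p = 0.402) and -0.62 (adjusted p = 0.0212). Both the Irak2 and the Traf6 call ended with probes averaged. Of 9 genes of MHC class II and costimulation, Cd274, Cd86 and Cd80 were lower, by 1.02, 0.75 and 0.58. All 3 are costimulatory or checkpoint ligands, and H2-DMa of the class II pathway was not called at 0.36 (95% interval 0.04 to 0.69, adjusted p = 0.176).

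Of 28 tested genes that glucocorticoids induce directly, 1 was called lower with FF, 0 higher and 27 not called (3.57% called, near the 4.14% of all genes), with a median of -0.15. The count was 1 higher and 5 lower with slide as a block or after normexp, and 0 to 2 lower with 1 array left out. Fkbp5, a receptor co-chaperone and standard marker of receptor activity, was at 4.50, 4.68 and 4.82 with FF, 4.87, 4.44 and 4.68 with DEX and 1.17, 0.98 and 1.35 with vehicle. FF and DEX arrays overlapped fully, both far above vehicle. The difference was 0.00 (95% interval -0.29 to 0.30, adjusted p = 0.995), and another probe gave 0.40 without a call (adjusted p = 0.344).

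Klf9, a transcription factor, read 0.91, 0.99 and 0.90 with FF and 0.87, 1.02 and 0.86 with DEX, which overlapped. The difference was 0.02 (95% interval -0.23 to 0.26). Tsc22d3, the leucine zipper protein GILZ, was at 2.85, 2.95 and 2.99 with FF, 3.45, 3.11 and 3.40 with DEX and 2.44, 2.42 and 2.61 with vehicle. FF lay below DEX on every array, yet the difference of -0.39 (95% interval -0.63 to -0.15, adjusted p = 0.0708) was not called and another probe gave 0.08. Per1, a clock gene, overlapped between the compounds and differed by -0.21 (95% interval -0.61 to 0.19).

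Dusp1, the phosphatase of p38 and JNK, was the called member. It read 6.25, 6.34 and 6.30 with FF, 6.92, 6.86 and 7.21 with DEX and 6.74, 6.77 and 7.11 with vehicle. DEX and vehicle arrays overlapped and FF arrays lay below both, with FF minus DEX at -0.70 (SE 0.13, adjusted p = 0.019). Of 19 genes of the receptor, its chaperones and steroid metabolism 0 were called. Nr3c1, the receptor itself, was at 2.41, 2.49 and 2.43 with FF and 2.78, 2.64 and 2.55 with DEX, without overlap, and differed by -0.22 (95% interval -0.49 to 0.06, adjusted p = 0.336), while another probe gave 0.29 (adjusted p = 0.219) and the mean of its probes 0.04. Mt2, a metallothionein, was at 0.00 (95% interval -0.18 to 0.19).

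**Figure D3:**
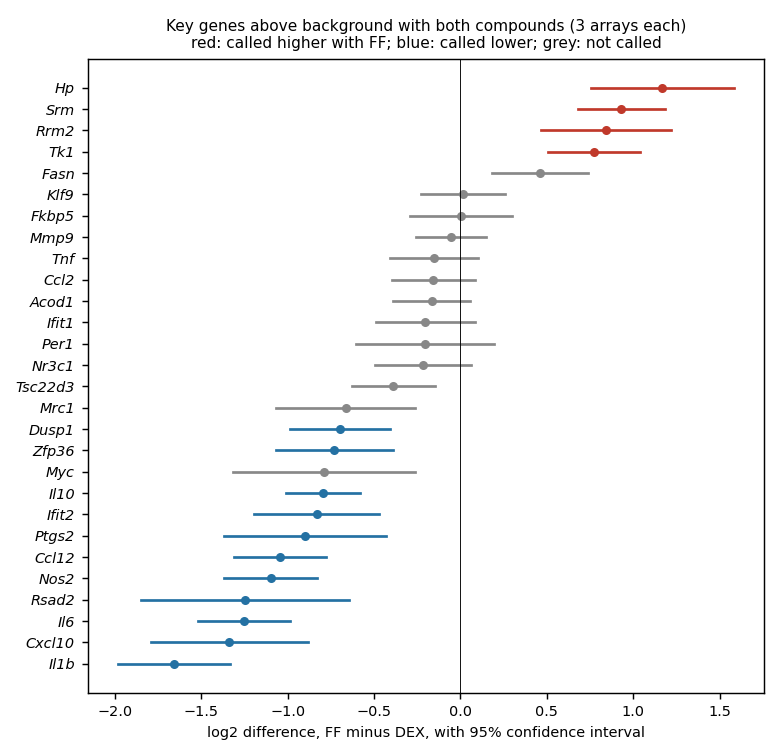
Points give the log2 difference of FF minus DEX for the key genes above background with both compounds (3 arrays each) and lines the 95% confidence interval. Cytokine, chemokine and enzyme genes from Il1b (-1.66) to Dusp1 (-0.70) lie to the left, Fkbp5 (0.00), Klf9 (0.02) and Tnf (-0.16) have intervals that cross 0, and Tk1, Rrm2, Srm and Hp lie to the right.

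Many genes of DNA replication and mitosis were called higher. Of 38 tested genes of DNA replication and nucleotide synthesis, 21 were higher with FF (55.3%), 0 lower and 17 not called, with a median of 0.64 that stayed above 0 in all 25 alternatives. Of 38 mitosis genes, 16 were higher (42.1%), 0 lower and 22 not called, with a median of 0.70, above 0 throughout too. Fits that changed only the blocks or the arrays behind the spread could not move these medians. Across the other scalings, normexp and the deposited value table they ranged from 0.63 to 0.74 for replication and from 0.50 to 0.81 for mitosis. The calls were less stable than the medians. In both lists 0 genes were called with median scaling, with slide and position as covariates, and with a replicate block over 6 arrays. Leaving out an array also lowered the number of calls more than the medians. Called replication genes numbered 13, 8 and 11 without FF replicates 1, 2 and 3, and 11, 15 and 8 without DEX replicates 1, 2 and 3, with medians of 0.57 to 0.66. Called mitosis genes numbered 7, 4 and 8, and 8, 9 and 5, with medians of 0.61 to 0.75.

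Tk1, the thymidine kinase of S phase, was at 2.91, 3.27 and 3.14 with FF, 2.37, 2.35 and 2.28 with DEX and -1.86, -1.55 and -1.50 with vehicle. Both steroids stood far above vehicle and every FF array above every DEX array. FF minus DEX was 0.77 (SE 0.12, adjusted p = 0.00834), and 2 other probes gave 1.09 and 1.28 (each adjusted p = 0.003). Rrm2, a subunit of ribonucleotide reductase, read 2.71, 2.999 and 2.73 with FF, 2.14, 1.86 and 1.92 with DEX and -1.66, -1.84 and -1.39 with vehicle. The groups did not overlap, and FF was higher than DEX by 0.84 (SE 0.17, adjusted p = 0.0246), but leaving out any FF or DEX array ended the call.

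Mcm10, which helps to load the replication fork, was at 0.91, 1.25 and 0.99 with FF, -0.36, -0.02 and -0.23 with DEX and -1.31, -1.65 and -1.47 with vehicle. FF arrays were highest, by 1.26 over DEX (SE 0.17, adjusted p = 0.00396), and another probe gave 1.00 (adjusted p = 0.009). Members of the replicative helicase were higher as well, Mcm2 by 0.69 (adjusted p = 0.00396) and Mcm5 by 0.83 (adjusted p = 0.00477). The origin licensing gene Cdc6 was at 0.62 ± 0.15 with FF, -0.41 ± 0.15 with DEX and -1.40 ± 0.23 with vehicle, a difference of 1.03 (adjusted p = 0.00227). Pcna, the sliding clamp, was not called, at 0.21 (95% interval -0.00 to 0.43, adjusted p = 0.227), nor was Gins4 at 0.19 (0.01 to 0.37).

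Fbxo5, an inhibitor of the anaphase-promoting complex, was at -0.08, 0.03 and -0.26 with FF, -1.09, -1.20 and -1.31 with DEX and -3.94, -4.07 and -3.96 with vehicle. The 3 groups stood apart in that order, with FF minus DEX at 1.10 (SE 0.11, adjusted p = 0.00227). Wee1, the kinase that holds back mitotic entry, read -1.60, -1.27 and -1.65 with FF, -2.74, -2.69 and -2.62 with DEX and -3.59, -3.64 and -3.76 with vehicle. FF was above DEX on every array, by 1.18 (SE 0.14, adjusted p = 0.00227). Among mitosis genes, the kinase gene Plk1 was higher by 1.04 (adjusted p = 0.00227), the spindle midzone gene Prc1 by 1.05 (adjusted p = 0.00567) and the topoisomerase gene Top2a by 0.98 (adjusted p = 0.00789). Bub1, a spindle checkpoint kinase, was not called, at 0.07 (95% interval -0.18 to 0.33), and Cenpe, a kinetochore motor, at 0.34 (0.07 to 0.62, adjusted p = 0.132).

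The 12 largest rises, chosen among called genes with separate FF and DEX arrays, included Exo1, Traip and Xrcc3. Exo1, an exonuclease of mismatch repair and end resection, was at -0.24, 0.40 and 0.20 with FF, -0.92, -1.03 and -1.21 with DEX and -4.72, -4.49 and -4.61 with vehicle. FF arrays were highest without overlap, by 1.18 over DEX (SE 0.20, adjusted p = 0.0117). Traip, a ubiquitin ligase of stalled forks, read -0.43, -0.08 and -0.40 with FF, -1.47, -1.54 and -1.61 with DEX and -3.24, -3.49 and -3.73 with vehicle. FF lay above DEX throughout, by 1.24 (SE 0.17, adjusted p = 0.00396), while a dimmer probe gave 0.99 without a call (adjusted p = 0.125). Xrcc3, a homologous recombination protein, was higher by 1.23 (SE 0.30, adjusted p = 0.0467).

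Dek, a chromatin protein, behaved otherwise towards vehicle. It was at 2.98, 3.08 and 2.77 with FF, 1.81, 1.96 and 1.53 with DEX and 2.61, 2.29 and 2.14 with vehicle. DEX arrays were the lowest, vehicle arrays lay between and FF arrays were the highest. FF minus DEX was 1.18 (SE 0.15, adjusted p = 0.00236), and another probe gave 0.60 without a call (adjusted p = 0.072). Depdc1a, a mitotic zinc finger partner, likewise read -0.53, -1.06 and -1.14 with FF, -2.74, -1.89 and -2.26 with DEX and -1.83, -0.61 and -1.28 with vehicle. FF and vehicle arrays overlapped, and the difference from DEX was 1.39 (SE 0.32, adjusted p = 0.0358), with another probe at 0.58 (adjusted p = 0.369). D17H6S56E-5 was higher by 1.27 (SE 0.13, adjusted p = 0.00227).

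Replication-dependent histone genes, a list added after their values were seen, had 13 of 46 members higher with FF, 3 lower and 30 not called, with a median of 0.43 (5 to 9 higher and 1 to 3 lower with 1 array left out). H2ac4 was at 2.27, 2.85 and 2.58 with FF, 0.87, 1.31 and 1.06 with DEX and -0.31, -0.15 and -0.31 with vehicle. FF was highest and vehicle lowest, with FF minus DEX at 1.48 (95% interval 1.12 to 1.85, adjusted p = 0.00227). H1f5, a linker histone, read -0.06, 0.32 and -0.11 with FF, -1.18, -1.18 and -1.45 with DEX and -3.08, -2.81 and -2.90 with vehicle. Its groups did not overlap, a difference of 1.32 (SE 0.14, adjusted p = 0.00227). H2ac23 was higher by 1.18 (SE 0.16, adjusted p = 0.00331). For H2bc18 the probes disagreed, since its brightest probe was higher by 1.29 (adjusted p = 0.00331) and another was lower, at -0.90 (adjusted p = 0.046). Histone genes are near-identical copies, so a probe may read several of them and these values are uncertain as to gene.

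Of 24 G1 cyclin, Myc and CDK inhibitor genes 1 was higher and 2 lower with FF, with a median of -0.07 (0 or 1 higher and 0 to 2 lower with 1 array left out). E2f8, an S phase repressor, was higher by 0.94 (adjusted p = 0.0121). The growth arrest genes Gadd45a and Btg1 were lower, by 0.79 (adjusted p = 0.0276) and 0.57 (adjusted p = 0.022), and Gadd45a was at 1.49 ± 0.07 with FF, 2.28 ± 0.28 with DEX and 1.41 ± 0.24 with vehicle. Myc read -1.08, -1.08 and -1.26 with FF, -0.18, -0.51 and -0.35 with DEX and 1.06, 1.08 and 1.14 with vehicle. FF lay below DEX without overlap, but the difference of -0.79 (95% interval -1.32 to -0.27, adjusted p = 0.0846) was not called. Ccnd1 was not called, at 0.24 (0.03 to 0.44, adjusted p = 0.165).

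**Figure D4:**
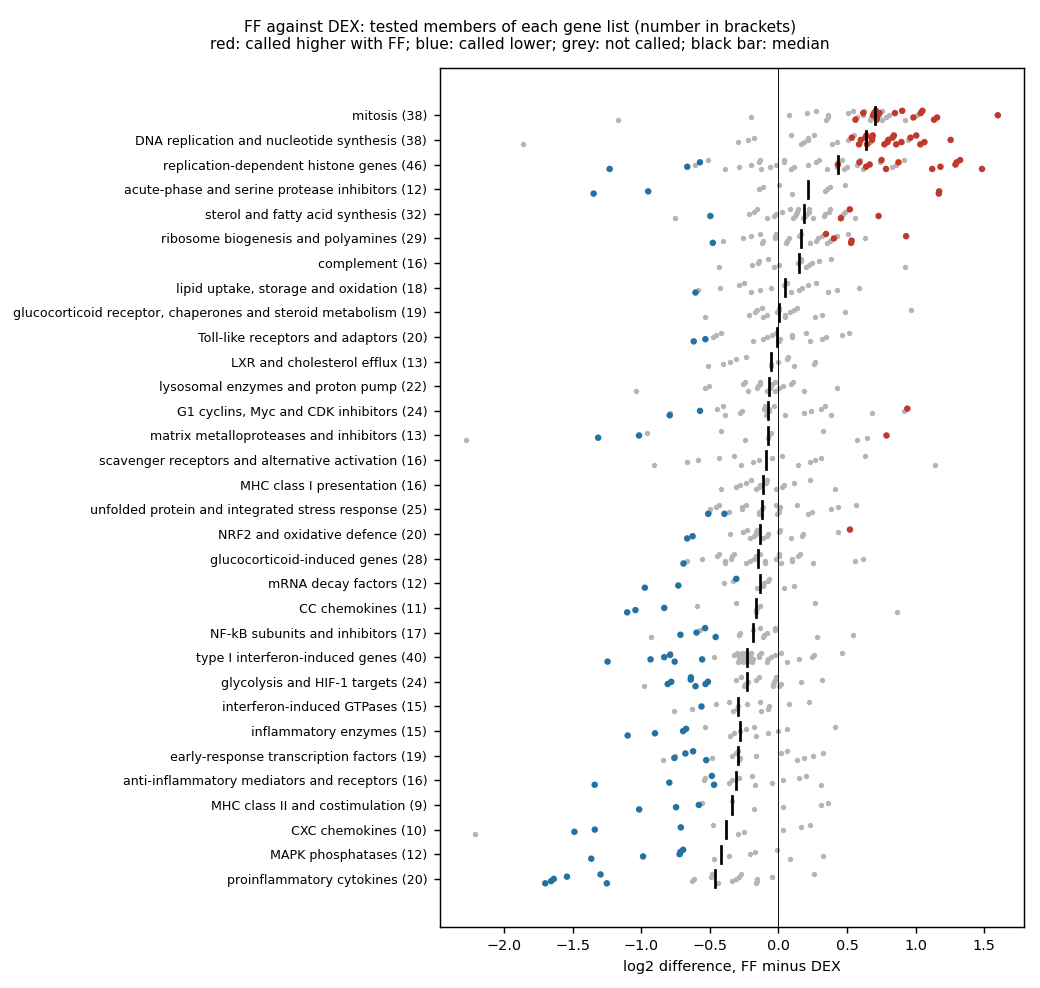
Each row is a gene list, with the number of tested members in brackets, and each point a member's log2 difference of FF minus DEX. Red and blue points were called higher and lower with FF, grey points were not called and the black bar is the median. The lists of mitosis (median 0.70) and DNA replication (0.64) lie at the top with 16 and 21 red points and no blue. That of proinflammatory cytokines (-0.46) lies at the bottom with 6 blue points and no red. These medians kept their sign in all 25 alternatives, several of which could not move them. With slide and position as covariates, or a replicate block over 6 arrays, 0 members of these lists were called.

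Of 29 genes of ribosome biogenesis and polyamines 5 were higher with FF, 1 lower and 23 not called, with a median of 0.17 (1 to 4 higher and 0 lower with 1 array left out). Srm, spermidine synthase, was at 3.88, 3.60 and 3.83 with FF, 2.82, 2.92 and 2.78 with DEX and 0.17, -0.07 and -0.21 with vehicle. FF was highest on every array, by 0.93 over DEX (SE 0.12, adjusted p = 0.00227), and 2 other probes gave 0.72 and 0.86 (adjusted p = 0.006 and 0.024). Odc1, the step before it in polyamine synthesis, was lower instead, by 0.48 (adjusted p = 0.033). Of 32 sterol and fatty acid genes, 3 were higher (Mvd, Hsd17b7, Fads2), 1 lower and 28 not called (0 to 2 higher and 0 or 1 lower with 1 array left out). Fasn, the fatty acid synthase, read 4.82, 4.93 and 4.92 with FF, 4.34, 4.59 and 4.37 with DEX and 2.96, 2.41 and 2.53 with vehicle. FF arrays lay above DEX arrays, yet the difference of 0.46 (95% interval 0.18 to 0.74, adjusted p = 0.0655) was not called.

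Of 24 genes of glycolysis and HIF-1 targets, 7 were lower with FF (Slc2a1, Hk2, Pfkp, Hif1a, Vegfa, Bnip3, Ero1a), 0 higher and 17 not called, with a median of -0.23 that kept its sign in all 25 alternatives. With 1 array left out, 2 to 6 were called lower. Slc2a1, the glucose carrier GLUT1, was at 6.11 ± 0.05 with FF, 6.90 ± 0.13 with DEX and 7.34 ± 0.18 with vehicle, a difference of -0.78 (adjusted p = 0.0077). Vegfa, the angiogenic factor, was lower by 0.64 (adjusted p = 0.0197) and Ero1a, an oxidase of protein folding, by 0.81 (adjusted p = 0.00883). Other Vegfa probes gave -0.50 (adjusted p = 0.0235), -0.14 (adjusted p = 0.565) and -0.04 (adjusted p = 0.967), and the Vegfa call ended with probes averaged. P4ha2, a collagen prolyl hydroxylase outside this list, read -1.82, -1.50 and -1.92 with FF, -0.45, -0.51 and -0.24 with DEX and 1.85, 1.78 and 1.72 with vehicle. It fell in that order without overlap, by 1.35 between the compounds (SE 0.20, adjusted p = 0.00574). Among the list's glycolytic enzymes, Hk2 and Pfkp were called lower, while Aldoa at 0.00 (95% interval -0.21 to 0.21) and Pgam1 at -0.14 (-0.30 to 0.01) were not called. Other Pfkp probes gave -0.44 (adjusted p = 0.0437), -0.08 (adjusted p = 0.897) and 0.14 (adjusted p = 0.890). The Pfkp call ended with probes averaged.

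Of 12 acute-phase and serine protease inhibitor genes 2 were higher with FF (Hp, Serpina3g) and 2 lower, Serpinb2 among them (0 or 1 higher and 1 or 2 lower with 1 array left out). Hp, the haemoglobin-binding acute-phase protein haptoglobin, was at 4.48, 4.76 and 4.53 with FF, 3.55, 3.41 and 3.30 with DEX and -2.77, -2.38 and -2.41 with vehicle. FF exceeded DEX on every array, by 1.17 (SE 0.19, adjusted p = 0.0093). Serpina3g was higher by the same amount, 1.17 (adjusted p = 0.0265), and was not above background with vehicle. Lcn2, another acute-phase protein, was not called, at 0.10 (95% interval -0.16 to 0.36).

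Serpinb2, a plasminogen activator inhibitor, read 3.004, 3.16 and 2.97 with FF, 4.52, 4.27 and 4.39 with DEX and 5.00, 4.89 and 5.24 with vehicle. FF was lowest, by 1.35 under DEX (SE 0.12, adjusted p = 0.000864). F3, tissue factor, which starts coagulation, was at 2.84, 2.66 and 2.68 with FF, 4.38, 4.04 and 4.43 with DEX and 2.48, 2.50 and 2.57 with vehicle. DEX arrays stood above both other groups and FF lay just above vehicle, with FF minus DEX at -1.56 (SE 0.24, adjusted p = 0.00789).

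Of 13 matrix metalloprotease and inhibitor genes, Mmp13 and Timp1 were lower, by 1.31 (adjusted p = 0.0226) and 1.02 (adjusted p = 0.0418), and Timp2 was higher by 0.79 (adjusted p = 0.047), of which the Timp1 and Timp2 calls ended with any array left out. Mmp9, a gelatinase, read 0.54, 0.40 and 0.41 with FF and 0.51, 0.55 and 0.46 with DEX, which overlapped, and differed by -0.06 (95% interval -0.26 to 0.15). Of 20 genes of NRF2 and oxidative defence, 1 was higher with FF, 2 lower and 17 not called (15% called), with a median of -0.14. Hmox1, the haem-degrading enzyme, and Sqstm1, an autophagy receptor, were lower by 0.67 and 0.63 (adjusted p = 0.00883 and 0.00567). Keap1, an inhibitor of NRF2, was higher by 0.52 (adjusted p = 0.0226). Its call ended with the 6 arrays alone and with any array but DEX replicate 2 left out. A link between these genes was not tested. Other Sqstm1 probes gave -0.15 and -0.30 without a call, and the Sqstm1 call ended with probes averaged. Of 25 stress-response genes, Ppp1r15a and Trib3 were lower, by 0.51 and 0.39 (8% called, beside 4.14% of all genes, and 0 or 1 called with an array left out).

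Among the remaining genes with the largest or surest differences, Scimp, a membrane adaptor of antigen-presenting cells, was at 3.67, 3.74 and 3.79 with FF, 4.87, 4.74 and 4.81 with DEX and 5.82, 6.03 and 6.29 with vehicle. The groups stood apart, with a difference of -1.08 (SE 0.12, adjusted p = 0.00227), and another probe gave -0.86 (adjusted p = 0.003). Fas, the death receptor, read 2.10, 2.17 and 2.25 with FF, 3.08, 2.94 and 3.002 with DEX and 2.96, 2.94 and 3.001 with vehicle. DEX and vehicle arrays overlapped and FF lay below both, by 0.84 under DEX (SE 0.09, adjusted p = 0.00227). Dok7, an adaptor of a muscle receptor kinase, was lower by 1.34 (SE 0.16, adjusted p = 0.00227) at levels of -4.13 to -3.61 with FF and -2.80 to -2.33 with DEX, against 1.23 to 1.31 with vehicle.

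Some called genes were not well above background with 1 compound, and their difference is then a bound, the mean of the brighter group over the lowest signal well above background or the dim probe's own signal, whichever was higher. With DEX, Stmnd1 was at least 3.15-fold, Cst10 at least 2.73-fold, Scg5 at least 1.42-fold, Plxna4os2 at least 1.41-fold and Slco5a1 at least 1.40-fold brighter than with FF. Slco5a1, Plxna4os2 and Scg5 were above background on only 2 of 3 DEX arrays. With FF, H2ac13 was at least 2.02-fold, Kif11, a spindle motor, at least 1.69-fold, Mlf1 at least 1.44-fold, Mctp2 at least 1.33-fold and Tub at least 1.26-fold brighter than with DEX. The Stmnd1, Cst10 and Tub calls ended with any FF or DEX array left out, and in the deposited value table. Arg1, arginase, was not well above background with either compound and reached -0.87, -0.24 and -0.66 with vehicle. Mrc1, the mannose receptor, was above background on 2 of 3 arrays with each compound and was not called, at -0.67 (95% interval -1.07 to -0.26, adjusted p = 0.0658).

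No member was called on its brightest probe among 13 genes of LXR and cholesterol efflux, 16 of MHC class I presentation, 22 of lysosomal enzymes and the proton pump, 16 of complement, and 16 of scavenger receptors and alternative activation. Another probe of the scavenger receptor gene Msr1 was called lower, at -0.41 (adjusted p = 0.0321), beside -0.27 on its brightest probe. Of 18 genes of lipid uptake and storage 1 was called (5.56%, near the 4.14% of all genes), and 0 with any array left out. This was Dgat2, a triglyceride synthase, lower by 0.61 (adjusted p = 0.0486), at 0.30 ± 0.05 with FF, 0.91 ± 0.14 with DEX and -0.32 ± 0.10 with vehicle. In these lists Ctss, a lysosomal protease, differed by -0.05 (95% interval -0.24 to 0.14), H2-T23, a class I gene, by -0.02 (-0.21 to 0.17), C3 of complement by -0.14 (-0.38 to 0.10) and Lpl, lipoprotein lipase, by 0.04 (-0.12 to 0.19). Each of these intervals leaves out a 2-fold difference, although an interval that includes 0 does not show that the compounds act alike.

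Of the 112 named genes that were called, 45 had 73 other tested probes. Of these probes 21 were called in the same direction, 41 had the same sign without a call, 10 had the opposite sign without a call and 1 was called in the opposite direction. Called genes thus rest in part on 1 probe each. The calls also depended on how the arrays were scaled and which were used. With each of the 6 arrays left out in turn, 22 of the calls ended every time and 53 held every time. Outside of 3 settings, 37 of the 112 named calls held in every alternative in which the gene was tested, among them Il1b, Il1a, Il6, Il10, Nos2, Ccl7, Cxcl3, Mcm2, Mcm5, Mcm10, Tk1, Plk1 and H2ac4. The 3 settings set aside were slide and position as covariates, a replicate block over 6 arrays and scaling to the median. They ended 112, 112 and 109 of the 112 calls. Slide as a fixed block, array quality weights and leaving other arrays out of the spread ended none, so a call that held there adds little.

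**Figure D5:**
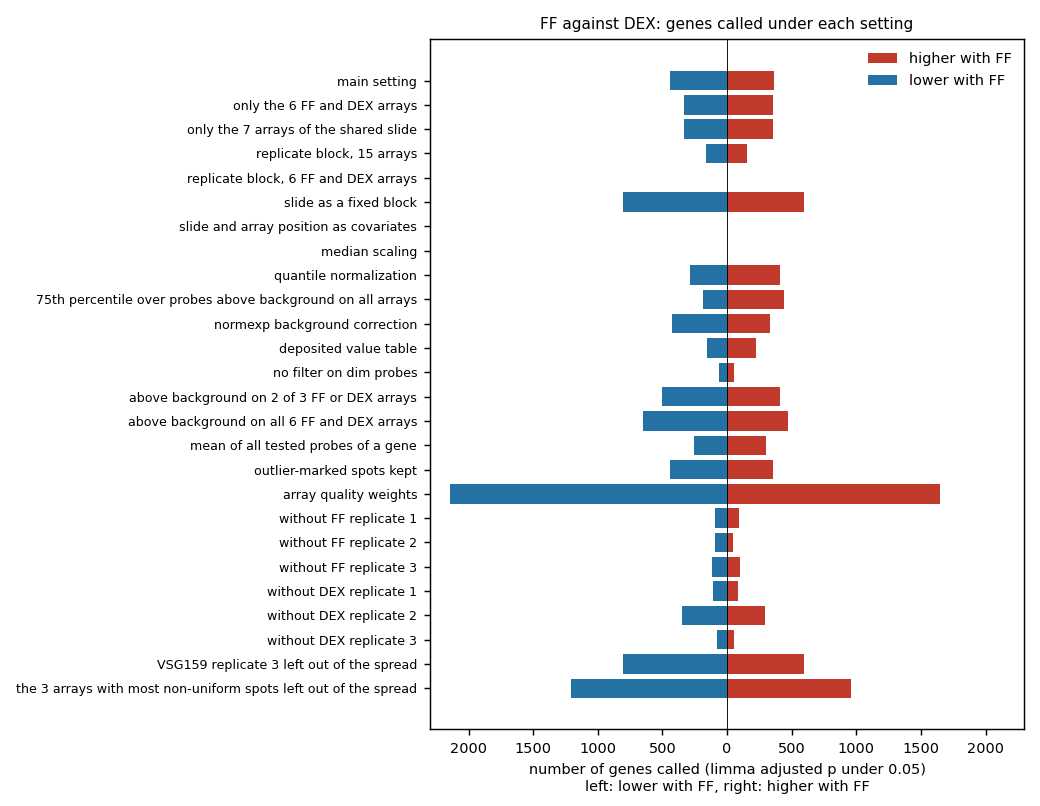
Bars give the number of genes called under each setting, lower with FF to the left and higher to the right, for the main setting (445 lower, 362 higher) and 25 alternatives. The count was 0 with slide and array position as covariates and with a replicate block over 6 arrays, 4 with median scaling and 3792 with array quality weights.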

How the data were processed

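RNA from RAW264.7 cells was labelled with Cy3 and hybridised to 15 Agilent mouse arrays in 5 groups of 3. Per the file headers, the authors read the arrays with Feature Extraction 10.7.3.1, whose deposited processed signal intensity is background-subtracted and detrended within an array. The deposited value table holds log2 values made with limma, per the submitters' processing notes (no version given), and served as an alternative. The deposited raw mean and background intensity served for the normexp alternative.

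Of 62976 spots, 3671 controls were left out, outlier-marked spots were set to missing, spots of a probe were averaged as log2, and each array's 75th percentile was subtracted. A probe was tested when well above background on at least 2 of 3 arrays of a group (28508 of 56605 probes), and a gene is its brightest tested probe. Of 19506 genes, 13445 were found by accession in the RefSeq table (GRCm38.p6, names only) and 347 symbols were updated. limma 3.58.1 in R 4.3.3 (data.table package, version 1.17.8) fitted all 15 arrays with group as the only term (residual degrees of freedom 10, prior 1.64), two-sided, Benjamini-Hochberg adjusted over all tested genes. The steps were tested on simulated data.

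The compounds, 31 gene lists, 9 marker lists and key genes were chosen with earlier results of these data known. Named genes are the 12 largest rises and falls among called genes with separate arrays, above background with both compounds and no predicted or clone name; the 5 largest bounds each way; 30 key genes; up to 4 called and 2 uncalled members per list; and the 10 smallest adjusted p. Some genes that this rule picks are not reported here, and they remain in the fit and in the list counts. Alternatives changed the arrays used, blocks, scaling, background, filter, probe rule and weights. The labels do not say whether replicate numbers pair the arrays. Deviations of same-numbered FF and DEX arrays correlated at -0.0863, -0.216 and 0.0889, which are too few values to settle it. The number of arrays limits the precision.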

Additional observations from a re-analysis of the deposited data

How the results depend on the processing

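Beside 807 called genes, 124 at least 2-fold apart and 1216 called probes, the 25 alternatives gave the following. Left out in turn, FF replicates 1, 2 and 3 left 188, 139 and 217 called genes and DEX replicates 1, 2 and 3 left 192, 641 and 131, with 49 to 167 at least 2-fold apart and 165 to 1127 probes. Median scaling left 4, 4 and 2 (genes, 2-fold, probes; 1854 genes at an unadjusted p under 0.05), slide and position as covariates 0, 0 and 0 (2124), and no filter on dim probes 111, 64 and 146. The deposited value table gave 376, 74 and 520, slide as a fixed block 1402, 230 and 1937, and array quality weights 3792, 528 and 5354. Normexp left 71 genes at least 2-fold apart. Replicate numbers as a block over 15 arrays gave 313 genes and 540 probes. A replicate block over the 6 arrays gave 0 genes, 0 at least 2-fold apart and 0 probes (4704 genes at an unadjusted p under 0.05). Whether these numbers pair the arrays is not known. After seeing the data, VSG159 replicate 3 was left out of the spread (1404, 231 and 1943), as were the 3 arrays with most non-uniform spots (2171, 385 and 2586). The 6 arrays alone called 688 genes, of which 399 were shared with the 807. All 807 kept their sign under each alternative that tested all of them, except for 9 in the value table and 19 with probes averaged. Alternatives that changed only the blocks or the arrays behind the spread left the differences nearly as they were, so a kept sign there adds little. Of 187 named genes, averaging probes turned the sign of 15. Of these, 2 were called in either setting, Pla2g4a at 0.048 and Sod1 at 0.57 (adjusted p = 0.0441, from -0.12), and the other 13 in neither, Rela (0.19) and Nr3c1 (0.04) among them. The cause of these shifts was not tested. No spot was saturated, and dim genes rest on few arrays above background.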
